A study of Homo sapiens with 12 samples.

Results

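The genes described here are 10 genes of retinoid signalling, chosen by gene symbol out of the 20003 genes with a value in every sample. They are the retinoic acid receptors RARA, RARB and RARG, the retinoid X receptors RXRA and RXRB, and the response and handling genes CYP26A1, DHRS3, TGM2, CRABP1 and CRABP2. All 10 were present in the table. Only 4 of them, RARA, RXRA, RXRB and DHRS3, reached a mean of 1 FPKM in a group, and 4 (RARB, CYP26A1, TGM2 and CRABP1) stayed below 0.1 FPKM in every sample. FPKM counts the fragments of a gene relative to transcript length and to all mapped fragments, so levels are per length and can be set side by side between genes.

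Retinoic acid is the active form of vitamin A. It binds a retinoic acid receptor that sits on DNA together with a retinoid X receptor, at paired copies of a short half-site, and the bound pair exchanges corepressors for coactivators. In acute promyelocytic leukemia, a translocation joins PML to RARA, and the PML-RARα fusion protein holds back the genes of myeloid maturation until pharmacological retinoic acid releases it.

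The samples were NB4 cells, an acute promyelocytic leukemia line that carries the PML-RARα fusion, and Kasumi-1 cells, an acute myeloid leukemia line that carries AML1-ETO. Each line had 3 control samples with DMSO and 3 samples with the test compound OGP46 at 1 μM. The labels give 48 h for all groups, and a figure legend of the study gives a longer incubation. No sample received retinoic acid, so the values describe the state of the pathway with OGP46 and not its response to a retinoid. Each line is a single line, and the fusion cannot be told apart from anything else that differs between NB4 and Kasumi-1. The labels do not tie the sample numbers to separate cultures, so p-values measure the spread between these samples. Reads of the PML-RARα transcript that fall in RARA count towards RARA, and those in PML towards PML.

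Retinoic acid acts on its best known targets through a direct repeat of the half-site AGGTCA with 5 bases between the copies. The RefSeq promoters of the members, from 250 bases before to 50 bases after each start site on GRCh38.p14, were searched on both strands for direct repeats of the half-sites AGGTCA, or AGTTCA, or GGGTCA, or GGTTCA with 1, 2 or 5 bases between the copies. A window was found for 9 of the 10 members, and TGM2 was not among them. The repeat with 5 bases was found at RARB and CYP26A1. Of all 35116 promoter windows, 0.0883% held such a repeat. RARB and CYP26A1 are shown as the members with the textbook element and ATXN1L as an expressed gene outside the members that holds it, with the half-sites in capitals.
RARB, chr3:25428190-25428246, plus strand: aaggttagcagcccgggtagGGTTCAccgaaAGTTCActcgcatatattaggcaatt
CYP26A1, plus strand: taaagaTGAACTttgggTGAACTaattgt
ATXN1L, plus strand: attgcgGGGTCAttgtgGGGTCAggctga

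At RARB, the repeat lay on the strand of the gene, from -53 to -37 relative to the start site, at chr3:25428210-25428226. At CYP26A1, it lay from -90 to -74 on the opposite strand of the gene, at chr10:93073803-93073819, and overlapped an exon of 1 annotated CYP26A1 transcript. A repeat with 1 or 2 bases between the copies was found in 0.131% and 0.0399% of all windows and in no window of a member. None of these spaced repeats was found in the windows of RARA, RARG, RXRA, RXRB, DHRS3, CRABP1 and CRABP2. At least 1 half-site lay in a window of RARA, RXRA, DHRS3 and CRABP2, as in 38.6% of all windows.

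RARB and CYP26A1, the members with the element, were at or near 0 in both lines, as were CRABP1, which had a window without it, and TGM2, described below. RARB, a receptor gene whose own promoter holds the element, was 0.0104 FPKM in NB4 control 1 and listed at 0 in the other 11 samples. CYP26A1 encodes the P450 enzyme that degrades retinoic acid. Its values were 0.0220, 0.0254 and 0 FPKM in the NB4 controls and 0.0214, 0.0655 and 0 after OGP46. Kasumi-1 cells had 0.0223 FPKM in 1 control, 0.0209 in 1 sample with OGP46 and listed at 0 elsewhere. The groups overlapped for both genes, and neither reached the mean of 0.1 FPKM needed for a test. The depth of the libraries is unknown, so these values are given without a detection limit.

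Of the genes with the element and an FPKM value, most were low and a few were expressed. The element was held by 29 genes, of which 15 had FPKM values. Of these 15, 10 had a mean below 0.1 FPKM over the 12 samples (66.7%, against 38.5% of all genes), while 4 had a mean of at least 1 FPKM (26.7%, against 49.7%). These 4 were ATXN1L, whose element is shown above, CFLAR, PANK2 and PHF8. ATXN1L had a mean of 7.62 FPKM in the NB4 controls and 8.07 with OGP46, and 6.23 and 6.61 FPKM in Kasumi-1 cells. This is a count of letters in short windows, and no binding was measured.

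The lines were first described by their markers. These lists were chosen with earlier results of these data known, so they are not an independent check. The 7 Kasumi-1 markers, among them RUNX1T1 (the ETO of AML1-ETO) and CD34, summed to 301.4 FPKM in the Kasumi-1 controls and to between 0.246% and 1.34% of that in the NB4 samples, with NB4 control 3 the highest and the others at or below 0.545%. RUNX1T1 was at most 0.0762 FPKM in NB4 and between 8.17 and 9.66 FPKM in Kasumi-1 cells. Of the 4 NB4 markers, STAB1, LGALS12 and DEFB1 were called higher in the NB4 controls, as were 22.7% of all genes tested. DEFB1 was listed at 0 in all 6 Kasumi-1 samples. HGF was higher in Kasumi-1 cells and did not mark NB4 here, so the marker sum in Kasumi-1 samples was 31.5% to 43.9% of that in NB4. FPKM summed to between 248207 and 310262 per sample.

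The receptors of the 2 families were present in both lines but in different proportions. RARA, the receptor gene that the translocation joins to PML, lies at chr17:40309192-40357643 on the plus strand (GRCh38, GENCODE release 29) and is overlapped by the antisense gene RARA-AS1. It was 4.32, 5.32 and 4.37 FPKM in the NB4 controls (4.67 ± 0.563, SD, n = 3). In the Kasumi-1 controls it was 1.43, 1.64 and 1.68 FPKM (1.58 ± 0.135). Every NB4 control was above every Kasumi-1 control, and the ratio of the means was 2.95. The log2 difference was 1.50 ± 0.13 (SE, adjusted p = 6.12e-06, limma). Of the 12302 genes tested, 8.96% had a higher log2 difference in favour of NB4. How much of this RARA signal comes from the fusion transcript and how much from the intact allele cannot be told apart in values per gene.

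PML, the other partner of the fusion, did not differ in this way. It was 6.05 ± 0.519 FPKM in the NB4 controls and 6.58 ± 0.433 in the Kasumi-1 controls, with a log2 difference of -0.12 that did not pass. The ratio of RARA to PML was therefore 0.753 to 0.835 in the 6 NB4 samples and 0.217 to 0.317 in the 6 Kasumi-1 samples, and the ranges did not overlap.

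RARG, the receptor best known from skin, lies at chr12:53210567-53232980 on the minus strand and was low. It was 0.219, 0.0968 and 0.187 FPKM in the NB4 controls and 0.0314, 0.0483 and 0.0361 FPKM in the Kasumi-1 controls. The NB4 controls were all higher, with a log2 difference of 0.92 ± 0.24 (SE, adjusted p = 0.00688, limma). RARG reached the mean needed for a test only through NB4, the line where it was higher. It stayed in the test in only 4 of the fits without 1 sample each. At this level the size depends on the 0.1 FPKM added before taking logs, and with 1 FPKM added the difference was 0.17. RARA made up nearly all of the summed receptor level of the 3 retinoic acid receptors in each sample, RARB being near 0.

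RXRA, the common partner of the retinoic acid receptors in myeloid cells, lies at chr9:134317098-134440585 on the plus strand. It was the most abundant member in NB4, with 21.9, 19.8 and 22.0 FPKM in the controls (21.2 ± 1.24). The Kasumi-1 controls had 2.34, 3.23 and 2.56 FPKM (2.71 ± 0.464). The groups lay far apart, with a ratio of the means of 7.83. The log2 difference was 2.93 ± 0.12 (SE, adjusted p = 1.10e-07, limma), and 3.57% of the genes tested had a higher one.

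RXRB, the other retinoid X receptor among the members, went the other way. The gene lies at chr6:33193588-33200688 on the minus strand and overlaps SLC39A7, and whether the counting used strand is not given in the sources used here. It was 7.97, 8.81 and 9.49 FPKM in the NB4 controls and 12.6, 14.2 and 13.2 FPKM in the Kasumi-1 controls, so that Kasumi-1 cells were higher without overlap. The means differed by 1.53-fold and the log2 difference was -0.61 ± 0.09 (SE, adjusted p = 0.000265, limma). This lies close to the smallest log2 difference counted, 0.58, and it was -0.47 with median centring and -0.40 as TPM, with adjusted p of at most 0.00283.

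The make-up of the retinoid X receptors was thus opposite in the lines. RXRG, which is not a member, was listed at 0 in every sample, which leaves RXRA and RXRB. In the NB4 controls, RXRA exceeded RXRB by 2.75, 2.24 and 2.31 times in samples 1, 2 and 3. In the Kasumi-1 controls, RXRB exceeded RXRA by 5.40, 4.40 and 5.17 times. Together the genes gave 28.6 to 31.4 FPKM in the NB4 controls and 14.9 to 17.4 FPKM in the Kasumi-1 samples of either treatment. These are levels of mRNA per length, and proteins were not measured here.

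Among the response and handling genes, DHRS3 differed most between the lines. DHRS3 is the reductase that turns retinal back into retinol, and its gene lies at chr1:12567910-12617731 on the minus strand. It was 3.58, 3.65 and 4.29 FPKM in the Kasumi-1 controls (3.84 ± 0.390) and 0.0188, 0.183 and 0.0894 FPKM in the NB4 controls (0.0970 ± 0.0822). The means differed by 39.6-fold. DHRS3 reached the mean needed for a test only through the Kasumi-1 controls. On the scale of log2(FPKM + 0.1), which understates the change of low values, the difference was -4.41 ± 0.28 (SE, adjusted p = 1.21e-06, limma), and 98.1% of the genes tested had a higher value.

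The low DHRS3 values of NB4 were compared with the traces of Kasumi-1 markers in the same samples. DHRS3 was 0.49%, 4.76% and 2.33% of its mean in the Kasumi-1 controls in NB4 controls 1, 2 and 3. The median share of the 7 markers was 0.0742%, 0.37% and 1.35% in the same samples, but the markers differed, and the share of POU4F1, the highest, was 5.61%, 10.7% and 10.8%. In control 1, 3 of the 7 markers had a higher share than DHRS3, and in controls 2 and 3 only POU4F1 did. The part of such traces in the DHRS3 values of NB4 was not tested. The highest DHRS3 values were in the samples numbered 2 of either treatment, and the highest CD34 value was in control 3.

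CRABP2, which carries retinoic acid to the nucleus, lies at chr1:156699606-156705816 on the minus strand and was low and scattered. It was 0.605, 0.199 and 0.152 FPKM in the NB4 controls and 0.316, 0.0728 and 0.0720 FPKM in the Kasumi-1 controls. The groups overlapped, and the log2 difference of 0.70 ± 0.46 (SE) did not pass (adjusted p = 0.192, limma). Without Kasumi-1 control 1, the sample that holds the highest value of its group, it was 1.12 and passed.

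CRABP1, the cytosolic binding protein of the same family, was listed at 0 in all 12 samples. TGM2, a transglutaminase that retinoic acid induces in many myeloid cells, was 0, 0.0173 and 0.00819 FPKM in the NB4 controls and 0.0144, 0.0148 and 0.00786 FPKM with OGP46. In Kasumi-1 cells it was 0.0234 FPKM in 1 sample with OGP46 and listed at 0 in the other 5. The TGM2 gene overlaps RPRD1B, and RARB overlaps TOP2B, each on the opposite strand.

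In all, 6 members could be tested between the controls of the lines and 5 passed. RARA, RARG and RXRA were higher in NB4, and RXRB and DHRS3 were lower. The mean of 0.1 FPKM needed for a test was taken over both lines. RARG reached it only through NB4 (0.0386 FPKM in the Kasumi-1 controls) and DHRS3 only through Kasumi-1 (0.0970 FPKM in the NB4 controls). For these genes the filter itself favoured a difference, so their calls add little to the count. Between these lines, 22.7% of all genes tested were called higher in NB4 and 29.7% lower, so a called difference was common for any gene. Groups that did not overlap were more common still, at 34.6% of genes with NB4 higher and 43.1% with NB4 lower. By rank among all genes, RXRA and DHRS3 had the most extreme differences of the 6 members.

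**Figure D1:**
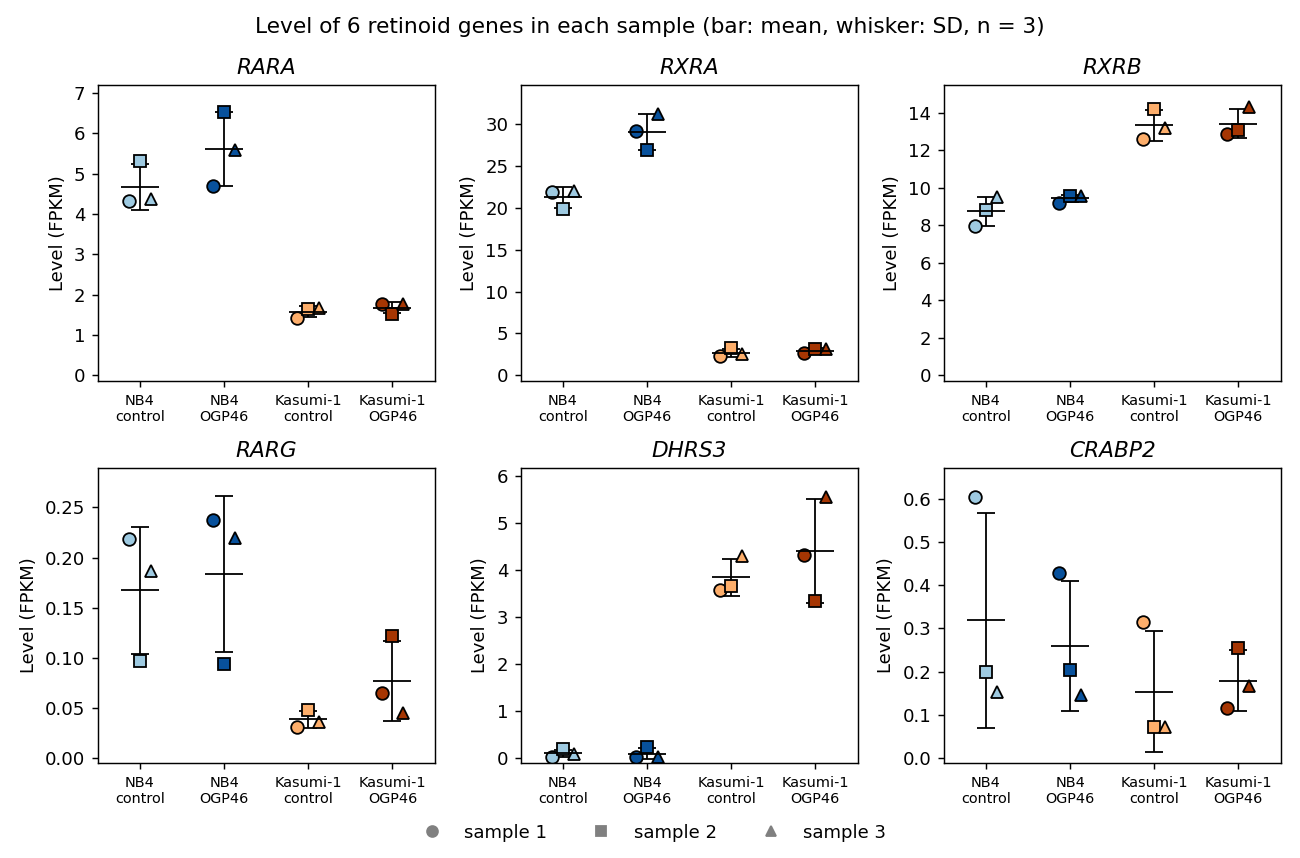
Level in FPKM of the 6 members that could be tested (vertical axes, each with its own scale) in the 4 groups, with 1 symbol per sample shaped by its number, a bar for the mean and whiskers for the SD. RARA and RXRA stood higher in NB4 and RXRB and DHRS3 in Kasumi-1 cells, and in NB4 the 3 samples with OGP46 lay above the 3 controls for RXRA.

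With OGP46, no member was called in NB4 cells, and RXRA was the member with the lowest adjusted p. RXRA was 29.1, 26.9 and 31.2 FPKM with OGP46 (29.1 ± 2.17) against 21.9, 19.8 and 22.0 in the controls. All 3 samples with OGP46 were above all 3 controls, as for 32.7% of the genes tested in NB4, while the reverse held for 1.91%. The means differed by 1.37-fold. The log2 fold change was 0.45 ± 0.09 (SE, 95% confidence interval 0.25 to 0.65, adjusted p = 0.0432, limma).

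This is below the smallest log2 fold change counted, 0.58, so RXRA was not called. With any fold change, 2.46% of the genes tested in NB4 were higher at an adjusted p below 0.05. Over all genes tested in NB4 the median was 0.18, RXRA was 0.27 above it, and 11% of genes had a higher value. With the sample number as a block, the adjusted p was 0.00334 (limma), and 21% of genes were then higher with any fold change. After median centring the adjusted p was 0.226 without and 0.0288 with the block (limma), and the log2 fold change was 0.23. Leaving out 1 sample at a time gave adjusted p of 0.0345 to 0.157.

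The other receptors in NB4 did not pass. RARA was 4.70, 6.54 and 5.59 FPKM with OGP46 (5.61 ± 0.921), higher than the control of the same number in 3 of 3 pairs but overlapping the controls as a group. Its log2 fold change was 0.25 ± 0.14 (SE, 95% confidence interval -0.08 to 0.58, adjusted p = 0.267, limma) and the adjusted p was 0.0843 with the block. After median centring the log2 fold change of RARA was 0.03 (adjusted p = 0.931, limma), and without 1 sample each it was 0.14 to 0.37. PML moved by a like amount, from 6.05 ± 0.519 to 7.02 ± 0.850 FPKM, with a log2 fold change of 0.21 that did not pass (adjusted p = 0.267, limma). The interval for RARA leaves room for a change of up to the 1.49-fold that was counted.

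RXRB was 9.21, 9.55 and 9.57 FPKM with OGP46 in NB4, which overlapped the controls, and its log2 fold change was 0.11 ± 0.09 (SE, adjusted p = 0.431, limma). RXRA thus exceeded RXRB by 3.16, 2.81 and 3.26 times with OGP46, above the ratios of the controls, and the sum of both genes was 36.4 to 40.8 FPKM. RARG was 0.237, 0.0937 and 0.220 FPKM with OGP46. Its log2 fold change of 0.07 had a 95% confidence interval of -0.66 to 0.80, too wide to exclude a counted change in either direction.

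The response and handling genes of NB4 showed no called change either. CRABP2 was 0.429, 0.203 and 0.146 FPKM with OGP46, and its log2 fold change was -0.14 ± 0.44 (SE, adjusted p = 0.840, limma). DHRS3 was 0.0186, 0.230 and 0.0201 FPKM with OGP46, which overlapped the controls, and its mean was below the level needed for a test. CYP26A1 and TGM2 stayed below 0.1 FPKM, as given above. Retinoic acid is known to induce DHRS3, CYP26A1 and TGM2 in myeloid leukemia cells, and their values with OGP46 are given here only as levels.

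In Kasumi-1 cells, none of the 5 members tested passed. RARA was 1.77, 1.52 and 1.76 FPKM with OGP46 (1.69 ± 0.141), with a log2 fold change of 0.09 and a 95% confidence interval of -0.18 to 0.35. RXRA was 2.61, 3.09 and 3.19 FPKM (2.96 ± 0.311), with a log2 fold change of 0.13 and an interval of -0.16 to 0.43. For RARA and RXRA the intervals stayed inside the size that was counted.

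RXRB in Kasumi-1 cells was 12.9, 13.1 and 14.3 FPKM with OGP46, and its interval was the narrowest, from -0.16 to 0.16. DHRS3 was 4.32, 3.35 and 5.55 FPKM (4.41 ± 1.10), with a log2 fold change of 0.17 ± 0.16 (SE, adjusted p = 0.640, limma). CRABP2 was 0.116, 0.255 and 0.166 FPKM, with a log2 fold change of 0.24 and an interval of -0.60 to 1.08. RARG, below the level needed for a test in this line, was 0.0644, 0.122 and 0.0453 FPKM with OGP46. The OGP46 samples overlapped the controls for each of the 5 members tested, while 17.4% of all genes in this line were higher without overlap and 5.23% lower.

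Counted together, 0 of 5 members tested passed in NB4, where 1.45% of all genes were called higher and 0.111% lower. In Kasumi-1 cells 0 of 5 passed, where 0.0169% of all genes were called in each direction. With so few calls over all genes, 0 of 5 says little about the members. At an unadjusted p below 0.05, 3422 genes passed in NB4 and 1852 in Kasumi-1 cells, and RXRA in NB4 was the only member among them. The difference of the OGP46 effect between the lines, tested as an interaction, was 0.32 ± 0.16 for RXRA (SE, adjusted p = 0.493, limma; 0.193 with the block). It passed for 0 of 6 members, as for 0% of all genes, of which 1348 had an unadjusted p below 0.05. With the block it also passed for 0 of 6 members, against 1.81% of all genes with a higher effect in NB4 and 0.114% with a lower one.

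**Figure D2:**
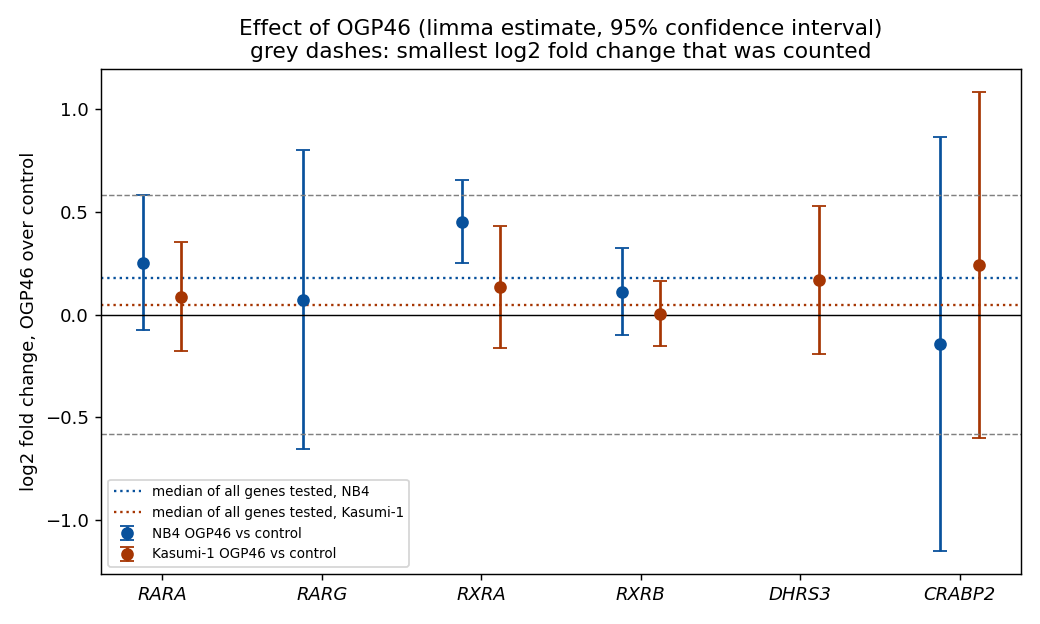
log2 fold change of OGP46 over control on the log2(FPKM + 0.1) scale (vertical axis) for each member tested, in NB4 (blue) and Kasumi-1 cells (brown), with 95% confidence intervals from limma. Dotted lines are the medians of all genes and grey dashes mark 0.58 in either direction. The interval of RXRA in NB4 (0.25 to 0.65) lies above 0, and those of the other members include 0.

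The wider pathway was followed through 4 lists of genes. None of their genes passed in NB4 or Kasumi-1 cells without the block. With the block, 5 genes of the lists were called in NB4, all higher, and 0 in Kasumi-1 cells. Over all genes the block called 5.06% higher and 1.15% lower in NB4, and 0.27% and 0.346% in Kasumi-1 cells. After median centring with the block, 0 of the 5 were called, and STRA6 and TNFSF10 alone were called with the block as TPM.

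Of the genes of retinoid metabolism and transport, 12 of 23 were tested in NB4 and 1 was called with the block. Over all genes, the block called 5.06% higher. The gene called was STRA6, the receptor that takes up retinol from its plasma carrier. STRA6 was 0.359, 0.110 and 0.289 FPKM in the NB4 controls and 0.742, 0.270 and 0.669 FPKM with OGP46, higher in 3 of 3 pairs. Its log2 fold change was 0.89 ± 0.40 (SE, adjusted p = 0.177, limma; 0.0111 with the block). In Kasumi-1 cells it was 0.163, 0.187 and 0.164 FPKM in the controls and 0.0724, 0.0547 and 0.0511 FPKM with OGP46, without overlap.

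The median log2 fold change of the list was 0.09 in NB4, below the 0.18 of all genes. The most abundant genes of the list were FABP5, a fatty acid carrier that also binds retinoic acid, and the retinol dehydrogenases RDH11 and RDH14. FABP5 was 78.2 ± 8.73 FPKM in the NB4 controls and 64.6 ± 18.2 with OGP46. RDH11 was 12.3 ± 1.01 and 13.7 ± 0.506 FPKM, and RDH14 was 8.63 ± 0.669 and 8.99 ± 2.12 FPKM. The groups overlapped for FABP5 and RDH14, RDH11 was higher without overlap, and none of the 3 passed.

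Of the corepressors and coactivators that the receptors recruit, 12 of 13 were tested in NB4 and none was called, with or without the block. All 12 log2 fold changes were above 0, as were 81.9% of those of all genes tested in NB4, and 10 were above the median of all genes, with a list median of 0.21. With the block, TBL1X, a subunit of the NCOR corepressor complex, and the coactivators NCOA3, EP300 and CREBBP passed the adjusted p but not the size. These were 4 of 12 genes, while 21% of all genes were higher at that adjusted p. NCOA3 was 7.65, 5.32 and 6.77 FPKM in the controls and 10.3, 7.44 and 10.2 FPKM with OGP46, with a log2 fold change of 0.50. The most abundant were HDAC3, the deacetylase of the corepressor complex, at 25.1 ± 2.18 and 27.2 ± 1.16 FPKM, MED1, a subunit of Mediator, at 19.0 ± 1.17 and 21.8 ± 0.819 FPKM, and TBL1XR1, a relative of TBL1X, at 12.2 ± 0.630 and 13.9 ± 1.29 FPKM.

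Of RXRG and the receptors that pair with retinoid X receptors, 8 of 14 were tested in NB4 and 1 was called with the block. Over all genes, the block called 5.06% higher. The gene called was PPARG, a receptor of fatty acids, with 0.332, 0.420 and 0.213 FPKM in the controls and 0.478, 0.726 and 0.488 FPKM with OGP46. Its log2 fold change was 0.67 (adjusted p = 0.136, limma; 0.0339 with the block). The list median was 0.33. The most abundant were NR1H2, an oxysterol receptor, at 12.5 ± 1.35 and 16.3 ± 1.78 FPKM, the thyroid hormone receptor THRA at 10.5 ± 1.39 and 9.34 ± 1.60 FPKM, and the vitamin D receptor VDR at 3.42 ± 0.821 and 4.13 ± 0.833 FPKM.

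Of 13 other genes known to respond to retinoic acid in promyelocytic leukemia cells, 11 were tested in NB4 and 3 were called with the block. Over all genes, the block called 5.06% higher. PRAM1, an adaptor protein named for its regulation by PML-RARα, was 3.58, 3.77 and 2.28 FPKM in the controls and 4.81, 5.97 and 3.78 FPKM with OGP46. Its log2 fold change was 0.59 (adjusted p = 0.132, limma; 0.00323 with the block). TNFSF10, the death ligand TRAIL, had a log2 fold change of 0.70 (adjusted p = 0.253, limma; 0.00436 with the block), and the kinase FGR had 0.99 (0.0998 and 0.0197). FGR was low, at 0.117, 0.265 and 0.134 FPKM in the controls and 0.564, 0.506 and 0.26 FPKM with OGP46. PRAM1, TNFSF10 and FGR were each higher in 3 of 3 pairs.

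All 11 genes of that list had a log2 fold change above 0, against 81.9% of all genes, and 9 were above the median of all genes, with a list median of 0.33. In Kasumi-1 cells, 7 of the 9 tested were above the median of all genes, with a list median of 0.185 against 0.0459. For the difference of the OGP46 effect between the lines, the list median was 0.0907, below the 0.123 of all genes. CEBPE, a factor of granulocyte maturation and the most abundant of the list, was 17.4 ± 1.98 FPKM in the NB4 controls and 17.8 ± 3.49 with OGP46. Markers of myeloid maturation moved in the same samples. The 11 markers summed to 62.9 to 73.8 FPKM in the NB4 controls and to 95.2 to 121 FPKM with OGP46, with CYBB the largest term. Of the 10 tested, 4 were called, against 1.45% of all genes higher, and 8 with the block, against 5.06%. After median centring or as TPM, 0 were called without and 4 with the block. In Kasumi-1 cells the sum was 106 to 128 FPKM in the controls and 118 to 120 FPKM with OGP46, most of it CSF3R. Of the 8 markers tested there, 6 had a log2 fold change above 0, and the list median was 0.28 against 0.05 for all genes. Of these markers 0 were called, against 0.0169% of all genes higher. With the block NCF1 was called, against 0.27% of all genes higher. NCF1 was 0.441, 0.870 and 0.809 FPKM in the controls and 1.13, 1.20 and 1.44 FPKM with OGP46. The part of this shift in the levels of the retinoid genes was not tested. In bulk samples, a change in the share of cells of a type and a change of RNA per cell cannot be told apart.

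**Figure D3:**
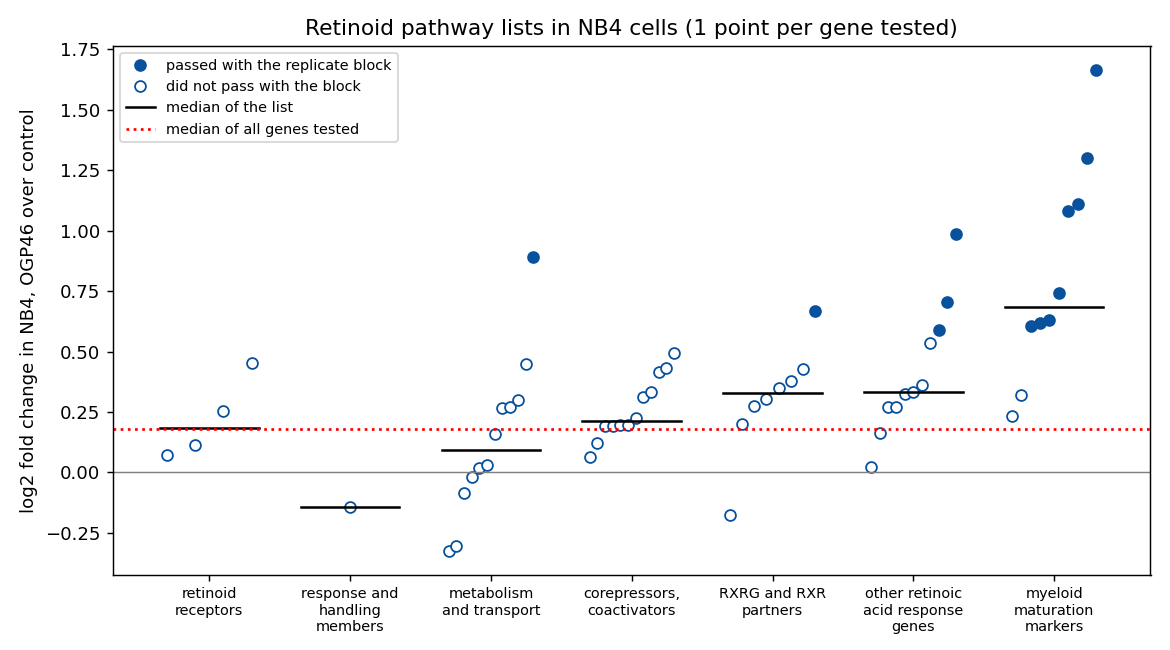
log2 fold change in NB4 cells, OGP46 over control (vertical axis), of every tested gene in the retinoid lists and in the list of myeloid maturation markers (horizontal axis), with filled points for genes called with the sample number as a block, black lines for list medians and a red dotted line for the median of all genes (0.18). The 5 filled points in the retinoid lists are STRA6, PPARG, PRAM1, TNFSF10 and FGR, and the members have none.

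More genes of these lists were called between the lines than with OGP46, as held for genes in general. Over all genes, 6449 were called between the lines' controls, and 183 in NB4 and 4 in Kasumi-1 cells with OGP46. Among the corepressors and coactivators, 6 of 13 were higher in the NB4 controls and 2 were lower, against 22.7% and 29.7% of all genes. NCOR1, a corepressor that binds unliganded receptors, had a log2 difference of 0.94, its partner GPS2 of 1.52 and the coactivator NCOA3 of 1.44. NRIP1, a corepressor of liganded receptors, was 0.0108, 0.0116 and 0.0772 FPKM in the NB4 controls and 5.78, 5.25 and 5.88 FPKM in the Kasumi-1 controls. Its log2 difference was -5.46, a size that depends on the 0.1 FPKM added before taking logs. NRIP1 reached the mean needed for a test only through Kasumi-1. The highest of its low values was in NB4 control 3, the sample with the most signal of Kasumi-1 markers. The part of such traces in the NRIP1 values of NB4 was not tested.

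Of the partner receptors, 4 of 9 were higher in the NB4 controls and 2 were lower, with PPARD at a log2 difference of 2.55 and THRA at 1.21. Of the other retinoic acid response genes, 7 of 10 were higher and 1 was lower. ASB2, a ubiquitin ligase subunit, had a log2 difference of 2.52 and CD38, a surface enzyme, of 2.05. Of the metabolism and transport genes, 3 of 13 were higher and 5 were lower, among them RETSAT, which saturates retinol, at -0.91. Beside these counts, 22.7% of all genes were called higher in the NB4 controls and 29.7% lower.

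The genes with the pattern most like a member over the 12 samples were found by Pearson's r of log2(FPKM + 0.1) among genes that averaged 1 FPKM or more. For RARA these were DCPS, EIF4H and COX10 (each r = 0.997). For RXRA they were BIN2 (0.999), EFHD2 (0.998) and JAG1 (0.998), and for DHRS3 they were FBN2 (0.997), AMN (0.996) and ADCY3 (0.996). With 2 lines among 12 samples, any gene that separates the lines scores high, and over 0.9 were 2438 genes for RARA, 2507 for RXRA and 2213 for DHRS3 out of 9942.

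Within NB4, the spread of some retinoid genes followed the sample number rather than the treatment. DHRS3, DHRS9, which makes retinal from retinol, CD38 and RARRES3 were highest in both samples numbered 2. CD38 was 14.0 FPKM in control 2 and 22.4 in OGP46 sample 2, and between 2.67 and 4.97 FPKM in the other 4. CRABP2 was highest in both samples numbered 1 and lowest in both numbered 3, and RARG was lowest in both numbered 2.

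Over all 11750 genes tested in NB4, both samples numbered 2 were above the other 4 for 10.7% of genes and below for 7.47%. In the list of other retinoic acid response genes 2 of 11 were above (18.2%) and TNFSF10 was below, and in the metabolism list 2 of 12 were above (16.7%) and STRA6 was below. Both samples numbered 1 were below the other 4 for 27.3% and 25% of these 2 lists, against 8.57% of all genes. As for CRABP2, both numbered 1 were above the other 4 for 2.12% of all genes. Both numbered 3 were below the other 4 for 2.02%. These genes were singled out after their values were seen. The labels do not say what the numbers stand for.

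**Figure D4:**
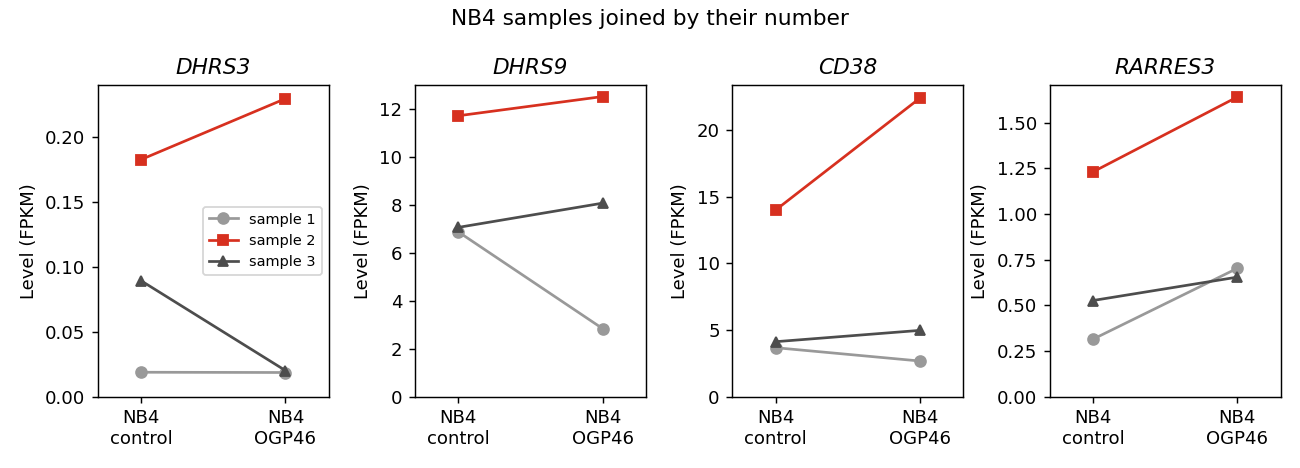
Level in FPKM (vertical axes, each from 0) of DHRS3, DHRS9, CD38 and RARRES3 in the NB4 controls and the NB4 samples with OGP46, with lines joining samples of the same number. In each panel the line of the samples numbered 2 lies above the others, so that for CD38 the gap between numbers exceeded that between treatments.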

How the data were processed

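mRNA of NB4 and Kasumi-1 cells, with DMSO or OGP46, was sequenced in 12 samples. The authors deposited 1 FPKM value per gene symbol and sample. The submitters' processing notes name Trimmomatic, HISAT2, Cufflinks, HTSeq and hg38, without versions, roles or a strand setting. Library sizes are unknown, so precision rests on 3 samples a group. In each sample 27 symbols turned into dates or serial numbers were left out, leaving 20003 genes.

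From the deposited FPKM, log2(FPKM + 0.1) was compared with limma 3.58.1 in R 4.3.3 (empirical Bayes with trend), with the genes limited to those averaging 0.1 FPKM or more in the fit. The calls needed a Benjamini-Hochberg adjusted p below 0.05 over all genes and a log2 fold change of 0.58 (1.49-fold), and the interaction the adjusted p alone. The main fit for OGP46 in NB4 was run on simulated data with log2 effects above 0.58 and samples drawn independently, and the other fits were not. Effects as small as that of RXRA, and correlated samples, were not simulated. The study names no pairing, so the sample number entered as a block only in an alternative fit. Deviations of same-numbered samples correlated within NB4 (r = 0.355, 0.622 and 0.197) and within Kasumi-1 (0.218, 0.157 and 0.395), and not across lines (-0.0487, 0.0176 and -0.00475). The block is therefore given within lines.

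All 10 members were named, and from the lists the genes called in either line with or without the block and the 3 most abundant of each. CD38, RARRES3, DHRS9 and the genes given for the lines' controls alone are further examples chosen after their values were seen. The members and lists were chosen with earlier results of these data known. Alternatives were other pseudocounts, filters and scalings, the block, and leaving out each sample. Gene positions are from GENCODE release 29 and promoter sequences from RefSeq on GRCh38.p14.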

Additional observations from a re-analysis of the deposited data

Results flagged for a closer look

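The effect of OGP46 on STRA6, the retinol uptake receptor, differed between the lines when the sample number entered as a block. The difference of the log2 fold changes was 1.66 ± 0.22 (SE, adjusted p = 0.0108, limma), with 0.89 in NB4 and -0.77 in Kasumi-1 cells. STRA6 was higher with OGP46 in 3 of 3 pairs in NB4 and lower in 3 of 3 pairs in Kasumi-1 cells. Without the block the adjusted p was 0.225 (limma), and with the block it was 0.0261 after median centring and 0.0187 as TPM. The block called 1.81% of all genes with a higher effect in NB4 and 0.114% with a lower one. All STRA6 values were below 1 FPKM. The difference in Kasumi-1 cells did not pass on its own (adjusted p = 0.188, limma; 0.137 with the block). STRA6 is 1 of the pathway genes, which were chosen with earlier results known.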

How the results depend on the processing

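No member was called for OGP46 in either line, nor for the interaction, under any setting run. Of 335 alternative values of the members, 304 kept direction and side of the threshold, 21 reversed, 7 weakened and 3 strengthened. In NB4, 183 genes were called, and 117 with a pseudocount of 1, 4 without a filter, 0 after median centring or as TPM, 730 with the replicate block (81.5% of them higher, against 92.9%), 391 with the block and median centring (48.1% higher), and 0 to 396 without 1 sample each, the last without NB4 OGP46 sample 2. In Kasumi-1 cells, 4 genes were called, and 2 with a pseudocount of 1, 0 without a filter, 24 at a minimum of 1 FPKM, 18 after median centring, 18 as TPM, 73 with the block, 93 with the block and median centring, and 0 to 11 without 1 sample each. For the interaction the count was 0, and 14 with a pseudocount of 1, 237 with the block, 144 with the block and median centring, and 0 to 1 without 1 sample each. The causes were not tested.

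Median centring moved the median of all genes in NB4 from 0.18 to -0.04 and TPM to 0.06, and between the lines' controls from -0.10 to 0.04 and 0.10. Relative to this, the NB4 log2 fold change of RARG became -0.15 with median centring (also with the block) and -0.0067 as TPM, and that of RXRB -0.11 and -0.013. RXRB in Kasumi-1 cells became -0.062 with median centring, and its interaction -0.042 with median centring and -0.037 as TPM, the block giving the same values. Without 1 sample each, log2 fold changes ran from -0.14 to 0.33 for RARG and from -0.46 to 0.31 for CRABP2 in NB4, from -0.040 to 0.050 for RXRB and from -0.0095 to 0.35 for DHRS3 in Kasumi-1 cells, and from -0.81 to 0.071 for the interaction of CRABP2.

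Between the lines' controls, 5 members were called, 4 after median centring or as TPM, 3 with a pseudocount of 1 and 3 to 6 without 1 sample each, the lowest without NB4 control 1. RXRB fell short of the size at -0.47 with median centring (with or without the block), -0.40 as TPM, -0.56 with a pseudocount of 1, -0.54 without NB4 control 1 and -0.56 without Kasumi-1 control 2. CRABP2 was called with the replicate block (adjusted p = 0.0175, limma), though the numbers do not pair across lines. Unknown depth limits the members below 0.1 FPKM.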
